A study of Mus musculus with 8 samples.

Results

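The genes described here are 42 genes of the extracellular matrix: the interstitial collagens, the collagens and glycoproteins of basement membranes, matrix proteoglycans and elastic fibre proteins, and the enzymes that cross-link, cut or protect matrix. They were taken by gene symbol from a table of 30153 mouse gene identifiers, and all 42 had exactly 1 row. RNA was measured by polyadenylated RNA sequencing in kidney tissue of hypertensive C57/BL6 mice that overexpress the human type 1 angiotensin receptor, in its haplotype II form (Hap-II). The groups were 4 aged Hap-II mice on a western diet and 4 adult Hap-II mice on the same diet. Transgene, strain and diet are thus shared by both groups, and mice without the transgene or on chow were not analysed here. The sources used here give neither ages in months, nor sex, nor the promoter that drives the transgene. Each mouse gave 1 library, named below by its group and its replicate number.

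The matrix of the kidney has an interstitial part and a basement membrane part. Fibrillar collagens of types I and III, which are made mainly by interstitial fibroblasts and pericytes, accumulate in renal fibrosis, and angiotensin II acting through its type 1 receptor is a known driver of their synthesis. Basement membranes are sheets of collagen IV and laminin joined by nidogens and heparan sulfate proteoglycans. The collagen IV network made from the Col4a1 and Col4a2 chains lies under most tubules and vessels, while in the mature glomerular filter podocytes lay down a network made from the Col4a3, Col4a4 and Col4a5 chains, whose loss causes Alport syndrome. Tissue inhibitors of metalloproteinases hold matrix-degrading enzymes in check.

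The collagen IV genes lie in head-to-head pairs, so that 2 genes of a pair are read away from a common stretch of DNA. Their starts were taken from GENCODE release M21 on GRCm38, and the bases from RefSeq promoter windows of the same build, which held 27 of the 42 genes. The first exons of Col4a1 and Col4a2 overlapped by 22 bases, the starts of Col4a3 and Col4a4 were 71 bases apart, and those of Col4a5 and Col4a6 were 1308 bases apart. They are shown because genes of a pair start from a shared stretch, and the ratios within the 2 closest pairs are given below. The region before Col8a1, the gene that was the 1 matrix gene called between the classes of library described below, is shown last. Capitals mark every match on either strand to a CCAAT box (CCAAT), a GC box (GGGCGG) or a TATA box (TATAAA).
Col4a1 and Col4a2 overlap, read on the plus strand at chr8:11312805-11312826: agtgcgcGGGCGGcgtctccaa
Col4a3 and Col4a4 interval, read on the minus strand at chr1:82586850-82586920: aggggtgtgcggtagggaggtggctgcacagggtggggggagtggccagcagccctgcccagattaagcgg
Col4a5 upstream, plus strand at chrX:141475169-141475384: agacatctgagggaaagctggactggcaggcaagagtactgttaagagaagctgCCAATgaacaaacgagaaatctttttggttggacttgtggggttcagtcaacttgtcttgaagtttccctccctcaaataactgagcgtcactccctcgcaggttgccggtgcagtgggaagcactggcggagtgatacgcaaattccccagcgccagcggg
Col4a6 upstream, minus strand at chrX:141474077-141474326: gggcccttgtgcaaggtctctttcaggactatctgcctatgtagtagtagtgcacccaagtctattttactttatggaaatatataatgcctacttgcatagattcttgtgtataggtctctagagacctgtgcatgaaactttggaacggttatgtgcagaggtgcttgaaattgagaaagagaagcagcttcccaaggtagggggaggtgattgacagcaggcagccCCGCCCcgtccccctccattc
Col8a1 upstream, minus strand at chr16:57754738-57754987: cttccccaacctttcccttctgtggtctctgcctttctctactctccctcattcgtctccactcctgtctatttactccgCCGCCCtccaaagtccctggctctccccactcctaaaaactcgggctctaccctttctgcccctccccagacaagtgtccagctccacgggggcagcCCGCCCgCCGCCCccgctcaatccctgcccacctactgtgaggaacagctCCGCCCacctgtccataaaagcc
The 22 bases shared by Col4a1 and Col4a2 held 1 GC box, which 4.09% of all 32851 promoter windows held at the same place. The stretch between Col4a3 and Col4a4 held none of the 3 motifs, and 20.7% of windows held a GC box there. The Col4a5 stretch held 1 CCAAT box (30.5% of windows) and the Col4a6 stretch 1 GC box (32.7%). Before Col8a1 there were 4 GC boxes, where 32.7% of windows held at least 1. No TATA box was found in these stretches, as in most windows (12.4% held one in the same 250 bases). A match describes letters only and says nothing on whether a factor binds.

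Values are TPM, a relative abundance scaled to a fixed total and corrected for transcript length, so levels of different genes can be set side by side. TPM keep no read depth, so no counting error can be given. The 8 columns totalled 924798 to 950974 TPM, and 10663 to 12293 genes reached 1 TPM. Mitochondrially encoded transcripts held between 26.8% and 46.9% of the TPM scale in aged libraries and between 19.6% and 26.1% in adult ones, and the groups did not overlap. The part of this share in the fold changes was not tested other than by the removal of these genes, given below. Y-linked transcripts (Ddx3y, Kdm5d, Eif2s3y and Uty) summed to at least 34.7 TPM in replicates 3 and 4 of both groups and to at most 2.30 TPM in replicates 1 and 2 of both. The labels do not name this split, which is balanced over age. It is treated below as a class of library. In whole tissue, fewer cells of a type and less RNA per cell cannot be told apart.

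No matrix gene passed the test between aged and adult kidneys. By limma on log2(TPM + 1), 31 of the 42 genes had a mean of at least 1 TPM and were tested, and 0 of them had an adjusted p under 0.05 over all genes, as had 0 of the 11796 genes tested (0%). At an unadjusted limma p under 0.05 there were again 0 of the 31, where 400 of all genes were past that limit (3.39%, of which 0.636% with aged higher and 2.76% with aged lower). None of the 31 had groups that did not overlap, against 2.46% of all genes. Fold changes below are log2 differences of TPM + 1, aged minus adult, and understate the change of low genes. They lay between −0.77 for Lamb1 and 0.43 for Col4a5, with 15 positive and 16 negative, while 65% of all genes were negative. Their median was −0.0074, against −0.11 for all genes. The standard errors had a median of 0.38, and a 95% confidence interval such as that of Col4a1, −1.28 to 0.92, holds sizeable changes in both directions. A p above the limit therefore does not show equal levels. With mitochondrial genes removed and TPM rescaled, 24 of the 31 fold changes were positive and 7 negative, while only 31.5% of all genes were negative. Their median was then 0.24, where that of all genes was 0.14.

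**Figure D1:**
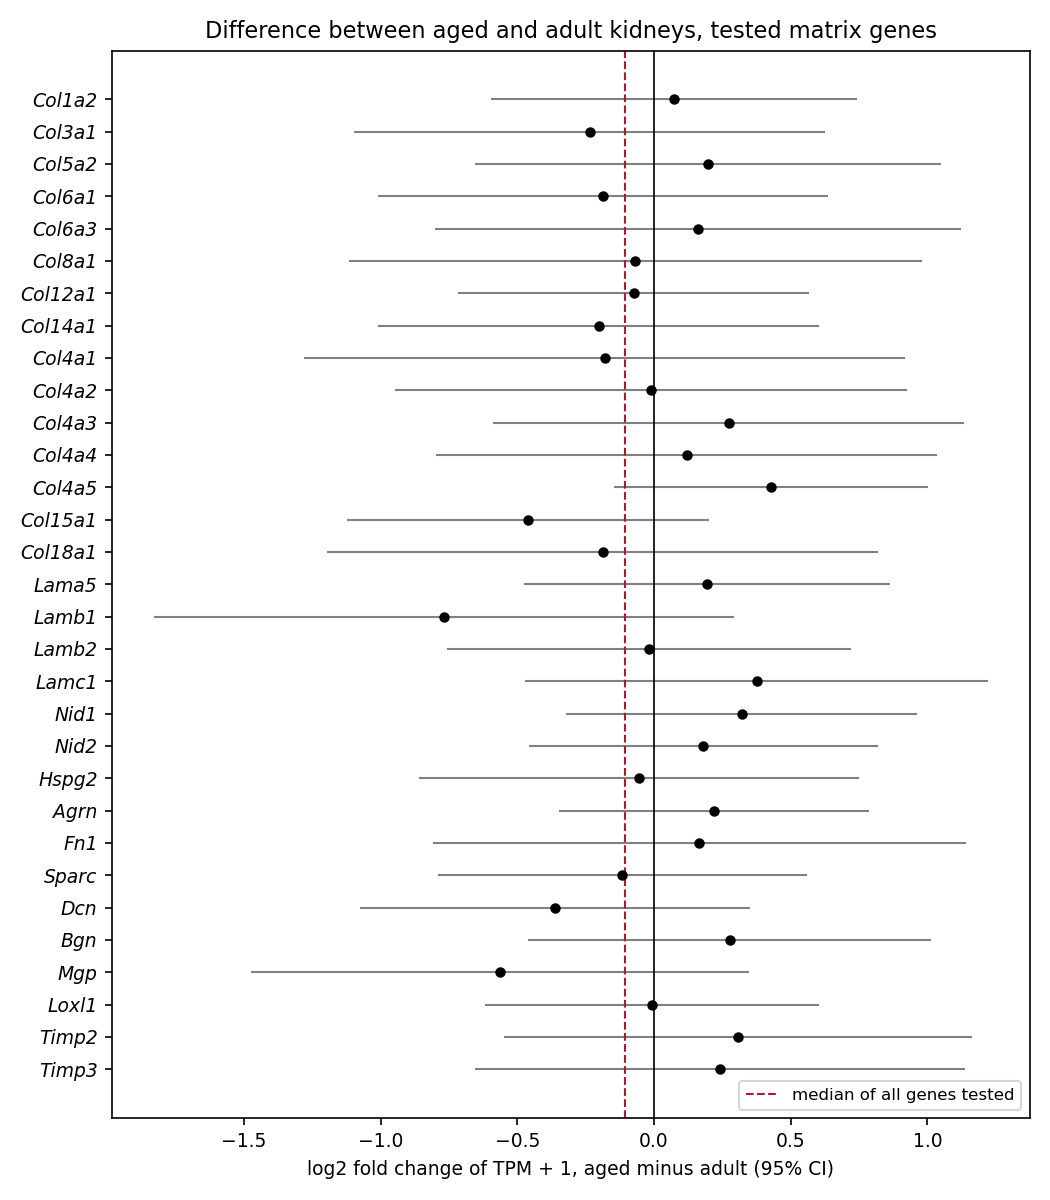
Log2 fold change of TPM + 1, aged minus adult, for the 31 tested matrix genes (points) with 95% confidence intervals from limma (lines, 4 libraries per group), and the median of all 11796 genes tested (dashed). Every interval crosses 0, from Lamb1 at −0.77 to Col4a5 at 0.43.

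The fibrillar collagens were low in both groups and did not differ by age beyond the spread between animals. Col1a1, which encodes the main chain of type I collagen, had 1.08, 0.275, 0.238 and 0.501 TPM in aged replicates 1 to 4, against 1.17, 0.744, 0.295 and 0.294 TPM in adult replicates 1 to 4. It stayed under the mean of 1 TPM needed for testing. Its partner chain Col1a2 had 5.56, 3.39, 2.00 and 2.58 TPM in aged and 3.83, 3.02, 2.09 and 3.21 TPM in adult kidneys. In both groups replicate 1 was highest and replicate 3 was lowest, and the groups overlapped (log2 fold change 0.07, SE 0.31, limma adjusted p = 1.00, as for every tested gene named here). In each library Col1a2 was above Col1a1, by a mean factor of 7.76 ± 3.40 in aged and 6.33 ± 3.47 in adult kidneys (SD, n = 4 each, exact two-sided permutation p = 0.514, and 0.643 adjusted over 5 ratios). Col3a1, of type III collagen, had 8.22, 2.62, 1.98 and 2.34 TPM in aged and 6.52, 3.46, 2.49 and 4.44 TPM in adult kidneys (log2 fold change −0.24, SE 0.39). Aged replicate 1 was thus the highest of all libraries, while the other aged ones were near the lowest adult one. Without it the fold change of Col3a1 was −0.61. The minor fibrillar chains Col5a1 and Col5a2, which set fibril diameter, averaged 0.236 ± 0.176 and 2.38 ± 1.56 TPM in aged, against 0.269 ± 0.110 and 1.90 ± 1.14 TPM in adult kidneys (SD, n = 4 each).

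The beaded-filament and fibril-associated collagens had overlapping groups as well. Col6a3, a chain of the collagen VI microfibrils that surround cells, had 7.03, 1.24, 2.10 and 0.556 TPM in aged and 2.10, 1.26, 1.90 and 1.74 TPM in adult kidneys. The aged values span the whole range of the adult ones, and the fold change was 0.16 with all libraries and −0.30 without aged replicate 1. Col6a1 averaged 1.42 ± 1.23 TPM in aged and 1.63 ± 0.893 TPM in adult kidneys, and Col6a2 averaged 0.843 ± 0.757 TPM in aged and 1.09 ± 0.654 TPM in adult kidneys (SD, n = 4 each). Col14a1, which lies on the surface of collagen I fibrils, averaged 3.56 ± 2.27 TPM in aged and 3.88 ± 1.14 TPM in adult kidneys. Col12a1, of the same fibril-associated class, averaged 1.05 ± 0.646 TPM in aged and 1.09 ± 0.305 TPM in adult kidneys. Log2 fold changes were −0.19 for Col6a1, −0.20 for Col14a1 and −0.07 for Col12a1.

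Collagen IV had the highest summed TPM of the collagen groups, and Col4a3 the highest mean TPM among its 6 genes in both age groups. Col4a3 had 15.4, 28.4, 12.6 and 17.7 TPM in aged replicates 1 to 4, against 32.0, 12.7, 8.09 and 13.1 TPM in adult replicates 1 to 4. Col4a4 had 8.50, 21.1, 7.81 and 14.0 TPM in aged and 24.4, 8.98, 6.34 and 9.73 TPM in adult kidneys. Aged replicate 2 and adult replicate 1 were the highest of their groups for both genes. The ratio of Col4a3 to Col4a4 ranged from 1.27 to 1.81 in aged and from 1.28 to 1.41 in adult kidneys, with means of 1.51 ± 0.251 in aged and 1.34 ± 0.0572 in adult kidneys (SD, n = 4 each, exact permutation p = 0.343, and 0.571 adjusted over 5 ratios). Their log2 fold changes with age were 0.27 (SE 0.39) and 0.12 (SE 0.42).

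Col4a1 and Col4a2, of the network found in most basement membranes, were also highest in aged replicate 2 and adult replicate 1 in the TPM as deposited. After division by size factors Col4a2 was highest in aged replicate 4 (8.95, against 8.64 in aged replicate 2), while Col4a1, Col4a3 and Col4a4 were still highest in these 2 libraries. Col4a1 had 12.1, 18.2, 5.50 and 4.65 TPM in aged and 23.9, 7.97, 4.40 and 11.6 TPM in adult kidneys. Col4a2 had 7.27, 11.3, 2.94 and 8.78 TPM in aged and 13.9, 4.90, 4.00 and 8.22 TPM in adult kidneys. Col4a1 exceeded Col4a2 in 7 of the 8 libraries, and the exception was aged replicate 4, with a ratio of 0.530. The ratio averaged 1.42 ± 0.601 in aged and 1.46 ± 0.274 in adult kidneys (SD, n = 4 each, exact permutation p = 0.886, the same when adjusted). Log2 fold changes with age were −0.18 (SE 0.50) for Col4a1 and −0.01 (SE 0.43) for Col4a2, and both changed sign when adult replicate 1 was left out (0.21 and 0.29). Reads from the bases that these genes share on opposite strands could be assigned to either one if strand was not used.

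Col4a5, the third chain of the glomerular network, had the most positive fold change of all tested matrix genes. It lies on chromosome X from 141475385 to 141689234 on the plus strand. It had 6.66, 7.47, 8.39 and 7.39 TPM in aged and 7.53, 5.81, 3.90 and 4.50 TPM in adult kidneys. All aged libraries lay above adult replicates 2 to 4, and adult replicate 1 lay within the aged range. It averaged 7.48 ± 0.712 TPM in aged and 5.43 ± 1.61 TPM in adult kidneys (SD, n = 4 each). The log2 fold change was 0.43 (SE 0.26, 95% confidence interval −0.15 to 1.00, limma unadjusted p = 0.131). The unadjusted limma p was 0.0323 with size factors (fold change 0.53) and 0.0172 with mitochondrial genes removed (0.71), while the limma adjusted p over all genes was 0.673 and 0.974. Within the class with Y-linked transcripts the fold change was 0.77, and within the class without them it was 0.08. The test of that difference over all genes is given below. Col4a6, whose product is found in Bowman's capsule and some tubules, was at most 0.321 TPM in aged and 0.298 TPM in adult kidneys and was not tested.

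**Figure D2:**
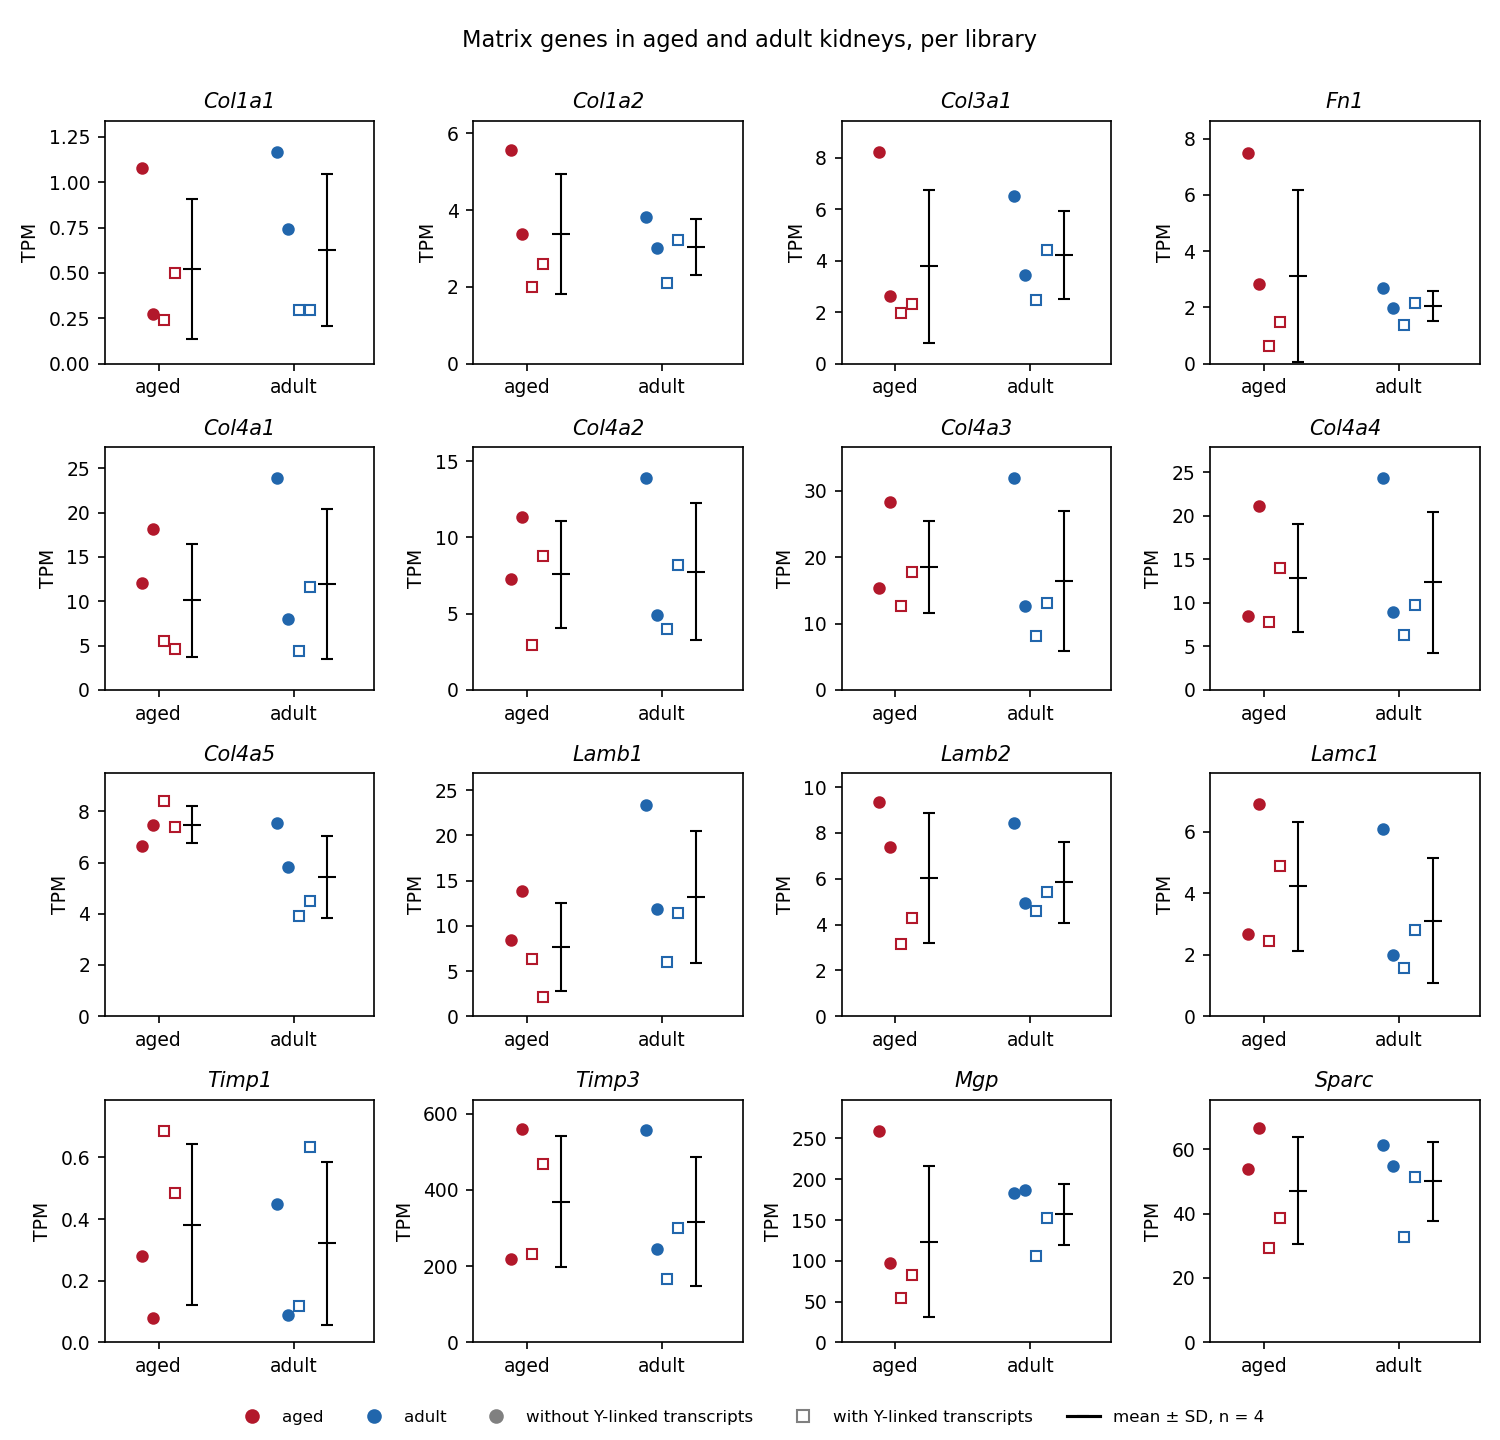
TPM of 16 matrix genes in each library (4 aged at left in red, 4 adult at right in blue), with open squares for libraries with and filled circles for libraries without Y-linked transcripts, and the mean ± SD of each group. The groups overlap for all 16 genes, and single libraries such as aged replicate 1 for Fn1 (7.47 TPM) stand above the rest.

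Among the other basement membrane genes, laminin beta 1 had the most negative fold change of all tested matrix genes. Lamb1 lies on chromosome 12 from 31265234 to 31329644 on the plus strand. It had 8.40, 13.8, 6.32 and 2.17 TPM in aged and 23.4, 11.9, 5.99 and 11.4 TPM in adult kidneys. Adult replicate 1 was highest and aged replicate 4 lowest, and the log2 fold change of −0.77 (SE 0.48, 95% confidence interval −1.83 to 0.29, limma unadjusted p = 0.140) was −0.46 without the one and −0.35 without the other. Lamb2, the beta chain of mature glomerular laminin, had 9.33, 7.40, 3.17 and 4.28 TPM in aged and 8.44, 4.93, 4.58 and 5.43 TPM in adult kidneys (log2 fold change −0.02, SE 0.34). Both groups had replicate 1 at the top and replicate 3 at the bottom. Lamb2 relative to Lamb1 averaged 1.03 ± 0.688 in aged and 0.504 ± 0.180 in adult kidneys (SD, n = 4 each, exact permutation p = 0.171, and 0.571 adjusted over 5 ratios), with aged replicate 4 at 1.97.

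Lamc1, the gamma chain shared by most laminins, had 2.69, 6.89, 2.43 and 4.87 TPM in aged and 6.07, 2.00, 1.57 and 2.80 TPM in adult kidneys (log2 fold change 0.38, SE 0.39). Aged replicate 2 and adult replicate 1 again stood above the rest. Lama5, the alpha chain of the same mature laminin, averaged 13.9 ± 2.74 TPM in aged and 12.4 ± 4.80 TPM in adult kidneys. The nidogens, which link laminin to collagen IV, averaged 3.82 ± 1.31 TPM for Nid1 and 1.80 ± 1.03 TPM for Nid2 in aged, against 2.81 ± 0.758 and 1.37 ± 0.228 TPM in adult kidneys (SD, n = 4 each). Of the heparan sulfate proteoglycans, Agrn (agrin, of the glomerular basement membrane) averaged 17.5 ± 1.42 TPM in aged and 15.3 ± 4.35 TPM in adult kidneys, and Hspg2 (perlecan) 3.26 ± 1.28 TPM in aged and 3.60 ± 2.03 TPM in adult kidneys. Col18a1, the precursor of endostatin, averaged 13.1 ± 6.45 TPM in aged and 16.0 ± 9.94 TPM in adult kidneys. Its relative Col15a1 had 4.06, 1.82, 1.21 and 2.04 TPM in aged and 4.09, 3.63, 2.75 and 2.89 TPM in adult kidneys. Aged replicates 2 to 4 lay below all adult libraries and aged replicate 1 among them (log2 fold change −0.46, SE 0.30, limma unadjusted p = 0.156, and 0.0367 without aged replicate 1, with an adjusted p of 1.00). Over the 10 genes of this group 5 fold changes were positive and 5 negative.

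Glycoproteins and proteoglycans of the interstitium were led by Mgp, the matrix Gla protein that inhibits calcification of vessels. It had 259, 96.9, 54.5 and 83.0 TPM in aged and 183, 186, 106 and 152 TPM in adult kidneys. Aged replicates 2 to 4 were below every adult library, and aged replicate 1 was above every adult library. The log2 fold change was −0.56 (SE 0.42, limma unadjusted p = 0.201) with all libraries, −1.003 without aged replicate 1 (unadjusted p = 0.00758, adjusted p = 1.00) and −0.26 without aged replicate 3. Decorin (Dcn), a small proteoglycan that binds collagen fibrils, had 16.1, 5.25, 7.02 and 6.88 TPM in aged and 11.7, 12.0, 8.51 and 10.7 TPM in adult kidneys. It had the same arrangement as Mgp, with a log2 fold change of −0.36 (SE 0.33) and of −0.67 without aged replicate 1.

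Fibronectin (Fn1), the glycoprotein on which collagen fibrils assemble, had 7.47, 2.84, 0.632 and 1.47 TPM in aged and 2.67, 1.99, 1.37 and 2.17 TPM in adult kidneys. The aged libraries lay on both sides of the adult ones, so that the log2 fold change was 0.17 (SE 0.44) with all libraries and −0.28 without aged replicate 1. Sparc, a collagen-binding glycoprotein of endothelium and glomeruli, had 53.8, 66.6, 29.2 and 38.6 TPM in aged and 61.3, 54.7, 32.7 and 51.4 TPM in adult kidneys (log2 fold change −0.12, SE 0.31). Replicate 3 was lowest in both groups. Biglycan (Bgn), a relative of decorin, averaged 32.8 ± 13.2 TPM in aged and 26.6 ± 8.52 TPM in adult kidneys (SD, n = 4 each), a log2 difference of 0.28 (SE 0.34). A further 4 genes of this group were under the limit for testing. Lum (lumican, which binds collagen fibrils) ranged from 0.904 to 1.80 TPM in aged and from 0.0660 to 1.43 TPM in adult kidneys. Postn (periostin, a matricellular protein of injured tissue) ranged from 0.479 to 2.29 TPM in aged and from 0.223 to 1.16 TPM in adult kidneys. Of the elastic fibre genes, Eln (elastin) ranged from 0.110 to 1.07 TPM in aged and from 0.159 to 0.592 TPM in adult kidneys. Fbn1 (fibrillin) ranged from 0.221 to 1.32 TPM in aged and from 0.312 to 0.482 TPM in adult kidneys. For all 4 the groups overlapped.

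Timp3, an inhibitor of metalloproteinases that is bound to the matrix, had the highest mean TPM of the 42 genes. It lies on chromosome 10 from 86300372 to 86349506 on the plus strand, and its exons overlap those of Syn3 on the opposite strand. Timp3 had 218, 558, 231 and 469 TPM in aged and 556, 245, 166 and 299 TPM in adult kidneys. Aged replicates 2 and 4 and adult replicate 1 formed the upper part of a range that both groups cover (means 369 ± 171 TPM in aged and 316 ± 169 TPM in adult kidneys, SD, n = 4 each). On the log2 scale Timp3 differed by 0.24 (SE 0.41). Timp1, the secreted inhibitor that rises in many models of renal fibrosis, had 0.281, 0.0790, 0.684 and 0.484 TPM in aged and 0.447, 0.0893, 0.117 and 0.633 TPM in adult kidneys. No library was above 0.684 TPM, and the groups overlapped. Timp2 averaged 12.5 ± 5.87 TPM in aged and 9.29 ± 3.30 TPM in adult kidneys (log2 fold change 0.31, SE 0.39). The gelatinase Mmp2 averaged 0.208 ± 0.272 TPM in aged and 0.488 ± 0.133 TPM in adult kidneys, with aged replicate 2 at 0.615 TPM and the other aged libraries at 0.101 TPM or less. The lysyl oxidases, which cross-link collagen and elastin, averaged 0.558 ± 0.510 TPM for Lox and 1.33 ± 0.554 TPM for Loxl1 in aged, against 0.436 ± 0.219 and 1.32 ± 0.447 TPM in adult kidneys (SD, n = 4 each).

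In the TPM as deposited, the summed level of matrix genes differed between animals of the same age along with a scale common to the whole library. The summed level of the 42 genes was 803, 987, 461 and 769 TPM in aged replicates 1 to 4, against 1118, 671, 422 and 706 TPM in adult replicates 1 to 4. Timp3 and Mgp, with means of 343 and 140 TPM over the 8 libraries, weighed most in these sums. Median-of-ratios size factors, which measure that scale over all genes, were 1.02, 1.31, 0.685 and 0.981 in aged and 1.49, 1.15, 0.730 and 0.957 in adult libraries. Aged replicate 2 and adult replicate 1 thus had the largest factor of their groups and replicate 3 the smallest, as for the matrix sums. Divided by these factors, an alternative added after the data were seen, the sums were 790, 752, 673 and 784 in aged and 753, 582, 579 and 738 in adult kidneys. As deposited, the means were 755 ± 218 TPM in aged and 729 ± 288 TPM in adult kidneys, and after division they were 749.9 ± 53.7 in aged and 663 ± 95.6 in adult kidneys (SD, n = 4 each). As deposited, the sum of the 6 collagen IV genes was 50.2, 86.7, 37.6 and 52.8 TPM in aged and 102, 40.6, 26.8 and 47.3 TPM in adult kidneys. That of the 5 interstitial collagens was 17.3, 11.1, 5.22 and 7.60 TPM in aged and 15.2, 9.85, 5.70 and 9.53 TPM in adult kidneys. Among the aged animals the 2 sums thus had different libraries on top, replicate 2 for collagen IV and replicate 1 for the interstitial collagens, whereas adult replicate 1 was the highest adult library for both, and the same libraries were on top after division by size factors.

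**Figure D3:**
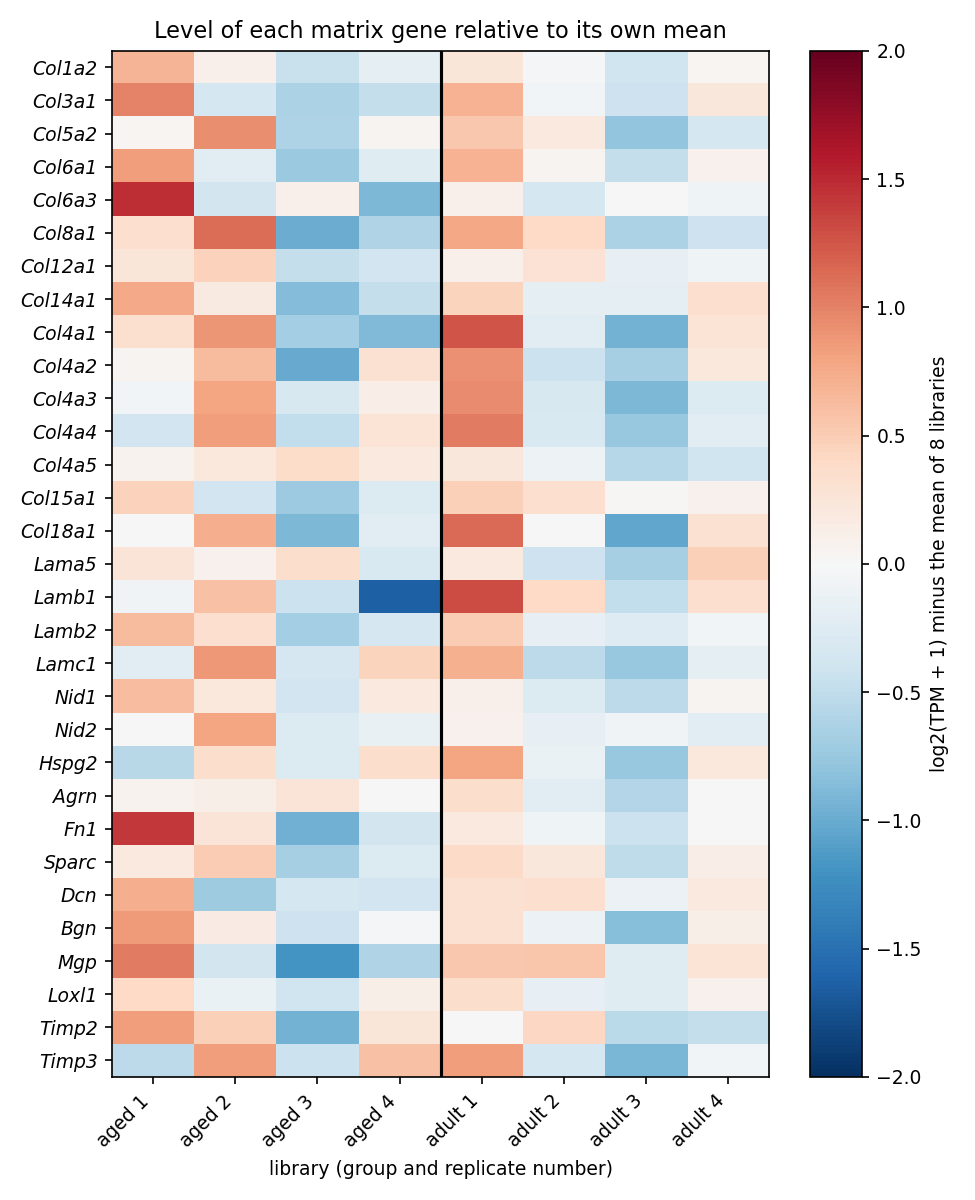
Level of each tested matrix gene in each library as log2(TPM + 1) minus that gene's mean over the 8 libraries (red above, blue below), with aged libraries left of the line and adult ones right. Aged replicate 1 is high for Col3a1 (8.22 TPM), Fn1 and Mgp, and aged replicate 2 and adult replicate 1 are high for Col4a1 to Col4a4 and Timp3. Replicate 3 of both groups, with the smallest size factors (0.685 in aged and 0.730 in adult), is low for most genes.

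Markers of cell types that make matrix were set beside these sums. The 5 podocyte markers (Nphs1, Podxl, Synpo, Wt1 and Ptpro) summed to 55.1, 106, 33.3 and 81.8 TPM in aged and 81.8, 46.6, 30.4 and 60.2 TPM in adult kidneys. Aged replicate 2 and adult replicate 1 were the highest of their groups, as for collagen IV, and replicate 3 was the lowest. After division by size factors the highest podocyte sums were those of aged replicate 4 (83.4) and adult replicate 4 (62.9). All 5 had positive fold changes with age, from 0.01 for Wt1 to 0.32 for Podxl, and 0 passed the test. Over all genes tested, 65% of fold changes were negative. The 11 fibroblast and pericyte markers with a row summed to between 41.8 and 57.5 TPM in aged and between 44.1 and 53.5 TPM in adult kidneys, with aged replicate 1 highest. Nt5e weighed much in this sum, with 25.29 of 45.55 TPM in aged replicate 3. Among aged libraries Nt5e was lowest in replicate 1 (14.0 TPM), where the sum was highest. The narrow range of the sum thus does not show a steady level of each marker. The 7 smooth muscle markers summed to 54.2, 38.4, 24.2 and 30.4 TPM in aged and 48.2, 48.4, 26.9 and 38.7 TPM in adult kidneys, with aged replicate 1 highest and replicate 3 lowest in both groups. Endothelial markers summed to between 185 and 245 TPM in aged and between 122 and 297 TPM in adult kidneys. Proximal tubule markers spanned 542 to 1928 TPM in aged and 568 to 2300 TPM in adult kidneys, again with aged replicate 2 and adult replicate 1 on top. After division by size factors their sum was highest in aged replicate 4 (1516, against 1468 in aged replicate 2) and still in adult replicate 1 (1549). Markers of other nephron segments summed to between 322 and 2085 TPM in aged and between 453 and 2205 TPM in adult kidneys. As deposited, aged replicate 2 and adult replicate 1 were on top for these too. The 6 macrophage markers summed to 298, 137, 61.7 and 82.3 TPM in aged and 213, 191, 125 and 123 TPM in adult kidneys, with aged replicate 1 highest. That rank rested on Lyz2, at 215 TPM in aged replicate 1, and each other macrophage marker was highest in another library. Positive fold changes with age were found for 7 of 9 tested endothelial markers and 2 of 8 fibroblast and pericyte markers. They were found for 1 of 5 smooth muscle, 1 of 6 macrophage and 1 of 8 proximal tubule markers. Of other nephron segments, 0 of 8 markers had one, and 0 markers of these lists passed the test. None of the markers in these 7 lists was at 0 in all libraries. The part of cell makeup in the levels of the matrix genes was not tested.

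**Figure D4:**
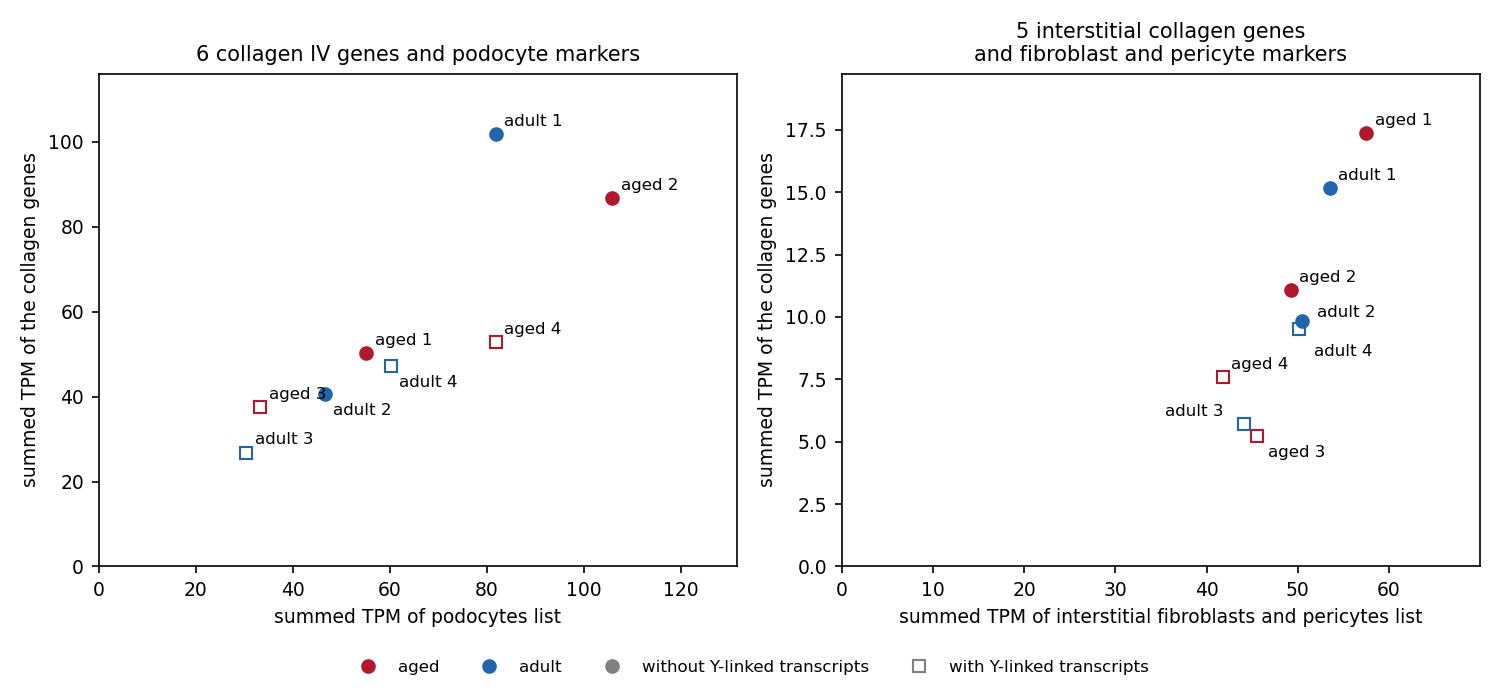
Summed TPM per library of the 6 collagen IV genes against the podocyte markers (left panel) and of the 5 interstitial collagens against the fibroblast and pericyte markers (right panel), aged in red and adult in blue. Aged replicate 2 (106 TPM of podocyte markers) and adult replicate 1 (81.8 TPM) have the highest collagen IV sums in the left panel, and aged replicate 1 (57.5 TPM of fibroblast and pericyte markers) lies at the upper right of the right one.

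Among other genes for making, cutting and sensing matrix, 0 passed the test over all genes, and the median fold changes lay near 0. The list of collagen processing and cross-linking enzymes had 13 of 15 genes tested, with 4 positive and 9 negative fold changes (median −0.06). For matrix proteases and their inhibitors 15 of 24 were tested, with 7 positive and 8 negative (−0.01). In the transforming growth factor beta pathway, the main inducer of collagen genes, 17 of 20 were tested, with 9 positive and 8 negative (0.03). Matrix receptors had 16 of 20 tested, with 8 positive and 8 negative (0.02), and further matrix and basement membrane genes 19 of 41, with 10 positive and 9 negative (0.01). The median of all genes tested was −0.11.

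A pair of genes in these lists had groups that did not overlap and an unadjusted p under 0.05. Serpine2, a serpin that inhibits thrombin and plasminogen activators, had 13.2, 13.4, 9.39 and 11.7 TPM in aged and 7.06, 7.67, 3.18 and 6.10 TPM in adult kidneys. Every aged library lay above every adult one, and the means were 11.9 ± 1.86 TPM in aged and 6.001 ± 1.99 TPM in adult kidneys (SD, n = 4 each). The difference was 0.93 on the log2 scale (SE 0.29, limma unadjusted p = 0.00839, adjusted p = 1.00). Leaving out single libraries gave fold changes between 0.70 and 1.05, and the 3 other scalings gave 1.01 to 1.23. Ecm1, a secreted glycoprotein that binds perlecan and fibulins, had 30.5, 25.4, 27.8 and 14.8 TPM in aged and 40.6, 38.1, 41.9 and 36.2 TPM in adult kidneys. Here every aged library lay below every adult one (log2 fold change −0.69, SE 0.26, limma unadjusted p = 0.0227, adjusted p = 1.00). The unadjusted p of Ecm1 was between 0.105 and 0.153 under the 3 other scalings, where its fold change was −0.42 to −0.59, and 0.0859 without aged replicate 4 (fold change −0.48). Across all genes 0.348% did not overlap with aged higher and 2.11% with aged lower. Ccn2, a matrix-associated target of transforming growth factor beta, averaged 35.1 ± 19.4 TPM in aged and 28.7 ± 7.42 TPM in adult kidneys, with aged replicate 1 at 63.7 TPM.

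The class of library was fitted beside age, a comparison added after the data were seen. In the TPM as deposited all 31 tested matrix genes were lower in the libraries with Y-linked transcripts, where 89.2% of all genes were lower too (medians −0.59 for matrix genes and −0.46 for all genes). With size factors 22 of the 31 were lower (medians −0.09 and 0.01). Col8a1, a short-chain collagen made by endothelium and mesangium, was the 1 matrix gene called, and it was called lower under all 4 scalings. Of all genes, 11.3% were called lower and 1.13% higher as deposited, 2.48% and 2.95% with size factors, 2.71% and 2.68% after quantile normalization, and 4.74% and 1.26% once mitochondrial genes were taken out. Col8a1 lies on chromosome 16 from 57624258 to 57754737 on the minus strand. Its levels were 0.370 and 0.798 TPM in aged and 0.761 and 1.05 TPM in adult libraries with Y-linked transcripts, against 2.42 and 4.91 TPM in aged and 3.64 and 2.61 TPM in adult libraries without them. The 2 classes did not overlap in either age group. Col8a1 averaged 0.74 TPM with and 3.40 TPM without Y-linked transcripts. It thus reached the mean of 1 TPM needed for testing only through the libraries without them. In the libraries with them its values rest on an unknown number of reads. The log2 difference was −1.31 (SE 0.25, limma adjusted p = 0.0135) as deposited. It was −0.98 with size factors (limma adjusted p = 0.0236) and −0.87 after quantile normalization (0.0341). Once mitochondrial genes were taken out it was −1.42 (0.0178). Over all libraries of an age its means were 2.13 ± 2.06 TPM in aged and 2.01 ± 1.35 TPM in adult kidneys (SD, n = 4 each). Col4a1 averaged 6.54 ± 3.40 TPM with and 15.5 ± 6.97 TPM without Y-linked transcripts, and Lamb1 averaged 6.46 ± 3.78 TPM with and 14.4 ± 6.40 TPM without them (SD, n = 4 each). Neither passed, with limma adjusted p of 0.0700 and 0.0600 as deposited and 0.331 and 0.395 with size factors.

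**Figure D5:**
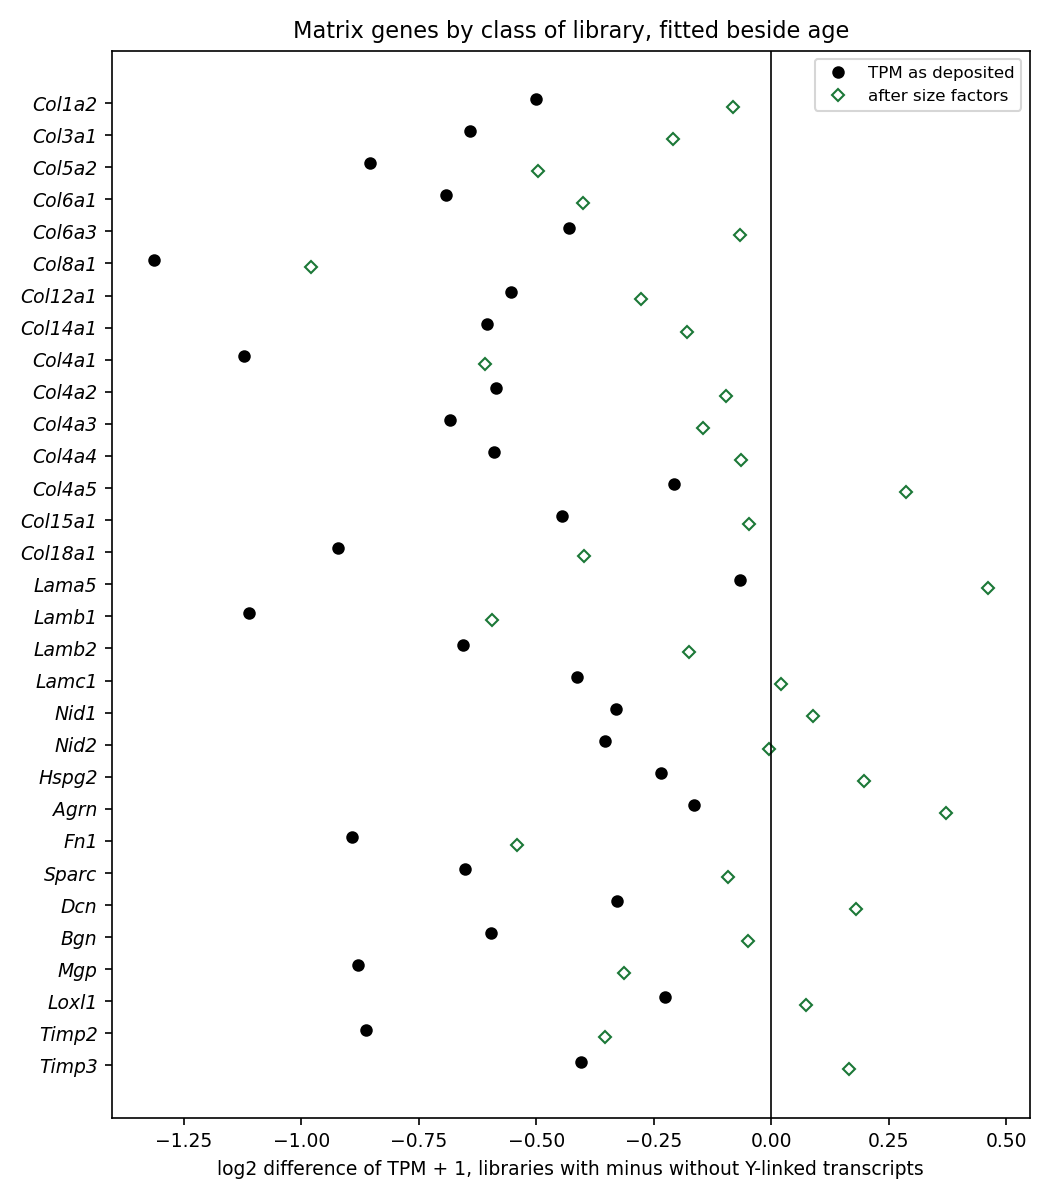
Log2 difference of TPM + 1 between libraries with and without Y-linked transcripts, fitted beside age, for the 31 tested matrix genes in the TPM as deposited (filled) and after size factors (open). All 31 differences are negative as deposited and 22 after size factors, and Col8a1 is lowest in both (−1.31 and −0.98).

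The effect of age was not shown to differ between the classes for any matrix gene. In a limma fit with an interaction term, 0 of the 31 had an adjusted p under 0.05 and 0 an unadjusted p under 0.05, while 245 of all genes were under 0.05 unadjusted and 4 passed. With the class as a covariate 0 of the 31 passed for age, and the smallest adjusted p was 0.592, that of Lamb1.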

How the data were processed

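Kidney RNA of 4 aged and 4 adult mice was selected for polyadenylated molecules and made into stranded libraries, according to the labels' protocols. The deposited values are TPM computed by the authors. Kallisto, DESeq2 and GRCm38 are named in the submitters' processing notes, with no versions, roles or order, and the annotation is not given in the sources used here. Columns were matched to samples by title, and 29732 of 30153 identifiers (98.6%) to symbols. TPM are not counts, so log2(TPM + 1) of all genes averaging 1 TPM or more was fitted in limma (version 3.58.1, R version 4.3.3) with a mean-dependent prior variance and Benjamini-Hochberg adjustment over all of them. TPM keep no read depth, and p-values rest on the spread between animals. Ratios were tested by enumerating all 70 assignments of libraries (exact, two-sided, smallest possible p of 0.0286). RefSeq promoter windows of GRCm38 span 250 bases before to 50 after a start, and the stretches shown end at the GENCODE M21 starts. Besides Col4a1, Col4a2 and Timp3, the exons of Fn1, Nid2 and others overlap genes on the opposite strand, and Col3a1 overlaps Gm47302 on its own strand. The authors' strand setting is not given in the sources used here.

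Values per library were to be given for a fixed set of collagens, laminins, Fn1, Sparc, Timp1 and Timp3, for the 3 genes of highest mean, and for genes with an unadjusted p under 0.05 or groups without overlap. Lamb1, Dcn, Col6a3, Col8a1, Col15a1 and Ccn2 were added after their values were seen, as was the comparison of classes of library, where a class has summed Y-linked transcripts above or below 10 TPM. The genes and lists were chosen with earlier results of these data known. Part of the podocyte marker list is not reported here. The fit was tested on simulated data and missed nearly all of the smaller changes set there, so 0 calls do not show equal levels. Alternatives were pseudocounts of 0.1 and 5, filters of none and of 5 TPM, median-of-ratios size factors, quantile normalization, mitochondrial genes taken out, limma without trend, with robust estimation or with array weights, a replicate block, the class of library as a covariate or as a subset, and each library left out in turn.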

Additional observations from a re-analysis of the deposited data

Results flagged for a closer look

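In 6 of 84 groups of 4 libraries, 1 library lay far from the other 3 by Dixon's test, which flags about 1 in 20 groups by chance, and 5 of the 6 were aged replicate 1. That rate holds for independent values with a normal distribution. Here TPM without a log were used, for genes measured in the same libraries. The 5 flags of aged replicate 1 are thus not 5 separate results. That library had 8.22 TPM of Col3a1, where the other aged libraries had 1.98 to 2.62 TPM. It had 16.1 TPM of Dcn, against 5.25 to 7.02 TPM in the others, and 2.29 TPM of the matricellular gene Postn, against 0.479 to 0.775 TPM. Its Fbn1 was at 1.32 TPM, where the others had 0.221 to 0.301 TPM, and its Lox also at 1.32 TPM, where the others had 0.240 to 0.357 TPM. Without this library the aged means were 2.31 ± 0.318 TPM for Col3a1 and 6.38 ± 0.987 TPM for Dcn (SD, n = 3), against 4.23 and 10.7 TPM in adult kidneys. Of the 8 libraries it had the highest summed smooth muscle markers (54.2 TPM), macrophage markers (298 TPM) and red cell genes (14660 TPM, against 933 to 1711 TPM in the other aged libraries and 2700 to 10650 TPM in adult ones). Lyz2 alone held 215 TPM of its macrophage sum, and each other macrophage marker was highest in another library. Hbb-bs held 11030 TPM of its red cell sum, while Hba-a1, Hba-a2 and Alas2 were highest in adult replicate 1. Aged replicate 2 stood apart for Mmp2, with 0.615 TPM against 0.0496 to 0.101 TPM in the other aged libraries, and lay within the adult range. The part of tissue makeup in these values was not tested.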

How the results depend on the processing

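Of the 31 tested matrix genes 0 were called in any of the 22 alternatives. Their median fold change, −0.0074 as reported, lay between −0.14 (without aged replicate 1) and 0.24 (mitochondrial genes removed, with 24 positive and 7 negative, against 15 and 16). With mitochondrial genes removed 31.5% of all genes were negative, against 65% as reported. Single genes changed sign in up to 11 of 31 cases (without aged replicate 3). Over all genes the count called, 0 as reported, was 1 with array weights, 16 when only libraries with Y-linked transcripts were used and 3 when only the others were, and between 0 and 2 with single libraries left out (2 without aged replicate 1, 1 without adult replicate 3). Some matrix genes were past an unadjusted limma p of 0.05 in single settings, given here with the count of all genes past it in brackets. Col4a5 was past it with size factors (813 of 11796 genes), quantile normalization (755) and array weights (776). With mitochondrial genes removed it was past it too (517 of 11783). Lamb1 was past it with array weights and without aged replicate 2 (610), and Mgp in the libraries with Y-linked transcripts (603). Without aged replicate 1, Mgp, Dcn and Col15a1 were past it (466). The replicate block called 0 genes and 0 matrix genes (916 genes at an unadjusted p under 0.05, against 400), with the matrix median at −0.0074. The labels give no pairing, and deviations of same-numbered libraries correlated by 0.038, 0.181, 0.486 and 0.415. These libraries also share their class: aged and adult libraries of 1 class correlated by 0.038 to 0.572, those of different classes by −0.527 to −0.123, and aged replicate 1 correlated best with adult replicate 2. TPM give no depth, so genes under about 1 TPM rest on an unknown number of reads. Examples are Col1a1, Timp1 and, in the libraries with Y-linked transcripts, Col8a1.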
